A study of Mus musculus with 6 samples.

Results

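Genes that regulate the antioxidant transcription factor NRF2, or that encode its family and its partners, were followed in mouse CD8+ T cells with and without Nae1. The 8 genes are the cap'n'collar (CNC) activator genes Nfe2l1 and Nfe2l2, the BACH repressor genes Bach1 and Bach2, the small MAF genes Mafg, Mafk and Maff, and Sqstm1, which encodes p62. They were chosen by name from the 18288 genes of the deposited table, all 8 were measured, and all 8 passed the filter on low values that left 13819 genes for testing. The data are RNA-seq libraries of CD8+ T cells activated in culture and collected on day 2, with 3 biological replicates of Nae1T-KO and 3 of Nae1WT. Nae1 encodes a subunit of the NEDD8-activating enzyme. The labels give no further allele, no driver of the deletion, and no strain, age or stimulus, and whether each replicate is a different mouse is not stated, which means that the p-values reflect only how far these libraries spread.

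NRF2, the product of Nfe2l2, is held low in resting cells by KEAP1, an adaptor that brings it to the ubiquitin ligase built on CUL3. Cullin ligases are activated by the attachment of NEDD8 to the cullin, and the control of NRF2 by KEAP1 acts on the protein rather than on the messenger RNA. When it escapes, NRF2 pairs with a small MAF protein, which lacks an activation domain of its own, and the pair binds the antioxidant response element. BACH1 and BACH2 pair with the same small MAF proteins and repress through related elements. BACH2 is also known in CD8+ T cells as a brake on effector differentiation. NFE2L1 is a relative of NRF2 anchored in the endoplasmic reticulum and is known for driving proteasome genes when proteasome activity falls. The autophagy receptor p62 binds KEAP1 and can carry it to the autophagosome.

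A search of promoter sequence was planned for all 8 genes. The antioxidant response element has the core TGACNNNGC, read here on both strands in windows from 250 bases before to 50 bases after the RefSeq start sites (GRCm38.p6). Every match of TGACNNNGC is also one of the looser TGANNNNGC. The core was present in the windows of 4 of the 8 genes, namely all 3 small MAF genes and Nfe2l2, against 14.0% of the 27025 genes with a window. Some genes have several windows, and counted by window it was 4 of 14 against 12.4% of all 32851. The 4 matches follow 5′ to 3′ along each gene's strand, with the match in capitals.
Maff: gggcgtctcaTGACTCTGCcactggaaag
Mafg: ctctgcaggaGCACGGTCAacccggcgag
Mafk: gatcccggaaGCGGTGTCAgtactgggga
Nfe2l2: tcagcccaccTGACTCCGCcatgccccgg
The Maff stretch is chr15:79346499-79346527 on the plus strand, with the match 112 to 104 bases before the start. The Mafg stretch is chr11:120633751-120633779 on the minus strand, with the match in the reverse direction from 222 to 214 bases before a start that lies inside the annotated gene. The Mafk stretch is chr5:139791513-139791541 on the plus strand, and its match, also reversed, ends 5 bases before the start. The Nfe2l2 stretch is chr2:75704885-75704913 on the minus strand, with the match 240 to 232 bases before the start. No window of Sqstm1, Bach1, Bach2 or Nfe2l1 held the core, which says only that these letters were not in these windows. The looser TGANNNNGC was in windows of 6 of the 8 genes and of 45.0% of all genes, and TGANTCA, the AP-1 type element, in 0 of the 14 windows of the 8 genes and in 7.81% of all windows. A match is a description of the letters, and binding was not measured.

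The knockout label was first checked on Nae1 itself, which was lower in every Nae1T-KO library. In normalized counts, that is reads divided by 1 size factor per library, it stood at 390.3, 338 and 367 in Nae1T-KO against 1601, 1806 and 1882 in Nae1WT (log2 fold change -2.27, limma, adjusted p = 5.03e-07). Recovered depth was 15628252 to 25444653 reads per library. The libraries differed in sex by Xist and Y-linked genes: Nae1T-KO replicates 1 and 2 and Nae1WT replicate 3 were female and the others male. T cell genes were present as labelled. The 8 measured CD8 T cell markers summed to 29732 to 31758 normalized counts in Nae1T-KO and 32261 to 34061 in Nae1WT, without overlap. The 8 CD4 T cell markers summed to 795 to 1009 and 437 to 603, without overlap, while Cd4 itself overlapped. They include the cytokine gene Il13, which alone had 669, 352 and 245 normalized counts in Nae1T-KO and 83.5, 160 and 203 in Nae1WT. Il4, also on that list, had 111, 65.2 and 77.8 normalized counts in Nae1T-KO and 31.9, 57.5 and 120 in Nae1WT. Neither cytokine gene passed the test (limma, adjusted p = 0.117 for Il13 and 0.553 for Il4). Whether the higher sum came from more CD4 T cells was not tested. The 7 measured myeloid and dendritic markers summed to 76.1 to 137 and 19.9 to 34.4, also without overlap. The 11 measured B cell markers summed to 223 to 639 and 248 to 378, and the 9 erythroid markers to 247 to 2104 and 173 to 700, both highest in Nae1T-KO replicate 2. The 4 measured markers of NK and gamma-delta T cells, mostly Eomes, summed to 721 to 923 and 1313 to 1659, lower in Nae1T-KO without overlap. The part of such cells in the results was not tested, and in bulk libraries fewer cells of a type and less RNA per cell cannot be told apart.

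All 3 small MAF genes and Sqstm1 rose in Nae1T-KO, while the genes of the CNC activators and BACH repressors did not pass the test. Thus 4 of the 8 were called higher and 0 lower (limma, Benjamini-Hochberg adjusted p under 0.05 over all 13819 genes), where 6.53% of all tested genes were called higher, 6.18% lower and 12.7% in either direction. With scaling to total counts, the calls over all genes became 1176 higher and 621 lower in place of 903 and 854. Of the 8 genes, 6 had every Nae1T-KO library above every Nae1WT library, compared with 16.7% of all tested genes. Groups that did not overlap, in either direction, were found for 33.7% of all tested genes. The median log2 fold change of the 8 was 0.38, and that of all tested genes was -0.01.

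**Figure D1:**
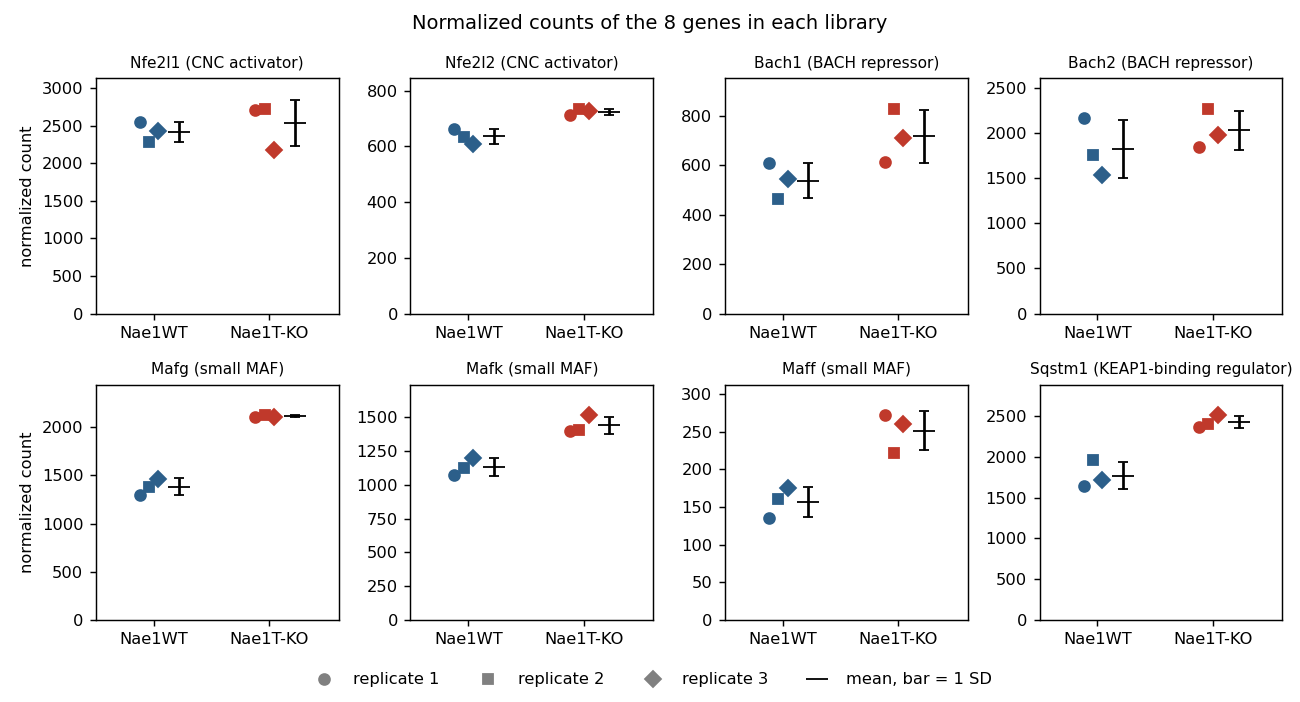
Normalized counts (y axes, from 0) of the 8 genes in the Nae1WT libraries (blue) and the Nae1T-KO libraries (red), each point 1 library, with the mean and 1 SD beside them. The groups are apart for Mafg, Mafk, Maff and Sqstm1, close together for Nfe2l2 and Bach1, and overlap for Nfe2l1 and Bach2.

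Of the small MAF genes, Mafg was separated most clearly. The Nae1T-KO libraries held 2104, 2125 and 2110 normalized counts of it and the Nae1WT libraries 1292, 1384 and 1467. The 3 Nae1T-KO libraries lay close together, with a coefficient of variation of 0.507% against 6.35% in Nae1WT. A spread taken from 3 libraries is itself uncertain, and this difference in spread was not tested. The highest Nae1WT library stayed well below all 3 Nae1T-KO libraries. The means were 2113 ± 10.7 (SD, n = 3) and 1381 ± 87.7 (SD, n = 3). On the log2 scale the change was 0.62 ± 0.07 (SE, limma, adjusted p = 0.000721), which is 1.53-fold with a 95% interval of 1.38 to 1.71. By p-value Mafg ranked 69 among all tested genes. MAFG is a well-known partner of NRF2, and the gene lies on chromosome 11 from 120625117 to 120634955 (GRCm38).

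Maff, which encodes the small MAF known for induction by stress and cytokines, had the largest fold change of the 8 and the lowest counts. It had 272, 222 and 261 normalized counts in Nae1T-KO and 135, 160 and 175 in Nae1WT. The lowest Nae1T-KO library, replicate 2, was still above the highest Nae1WT library. The log2 fold change was 0.68 ± 0.14 (SE, limma, adjusted p = 0.0119), 1.604-fold with a 95% interval of 1.29 to 1.99, from 110 to 258 reads per library. On chromosome 15 the gene runs from 79346621 to 79359078.

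Mafk changed least of the 3. It had 1399, 1406 and 1516 normalized counts in Nae1T-KO and 1073, 1125 and 1201 in Nae1WT, again with no overlap. The log2 fold change was 0.35 ± 0.07 (SE, limma, adjusted p = 0.0138), with a 95% interval of 0.18 to 0.51 on the log2 scale and a 1.27-fold change. Leaving out Nae1WT replicate 2 ended the call (0.34, limma, adjusted p = 0.0548), and over the alternatives adjusted p was 0.00416 to 0.175. MAFK is known from red cells, where it partners the CNC factor NF-E2, and the gene lies on chromosome 5 from 139791536 to 139802653. The difference in change between the 3 small MAF genes was not tested.

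Sqstm1 also rose. It had 2367, 2399 and 2509 normalized counts in Nae1T-KO and 1637, 1956 and 1718 in Nae1WT. Every Nae1T-KO library was above the highest Nae1WT library, replicate 2, by at least 23.2% of the Nae1WT mean. The log2 fold change was 0.46 ± 0.08 (SE, limma, adjusted p = 0.00516), 1.37-fold with a 95% interval of 1.22 to 1.55. Sqstm1 lies on chromosome 11 from 50200152 to 50210820. Its span overlaps that of Mrnip on the opposite strand by 750 bases, and whether strand was used in counting is not given in the sources used here. Mrnip had 57.3 to 82.8 normalized counts in Nae1T-KO and 88.9 to 112 in Nae1WT, far below Sqstm1 and lower rather than higher in each Nae1T-KO library (limma, adjusted p = 0.154).

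Mafg likewise shares 124 bases with Sirt7 on the same strand. Sirt7 had 935 to 974 normalized counts in Nae1T-KO and 1006 to 1103 in Nae1WT, the opposite order to Mafg (limma, adjusted p = 0.192). Tmem184a, which overlaps Mafk by 169 bases on the opposite strand, is not among the genes of the deposited table.

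**Figure D2:**
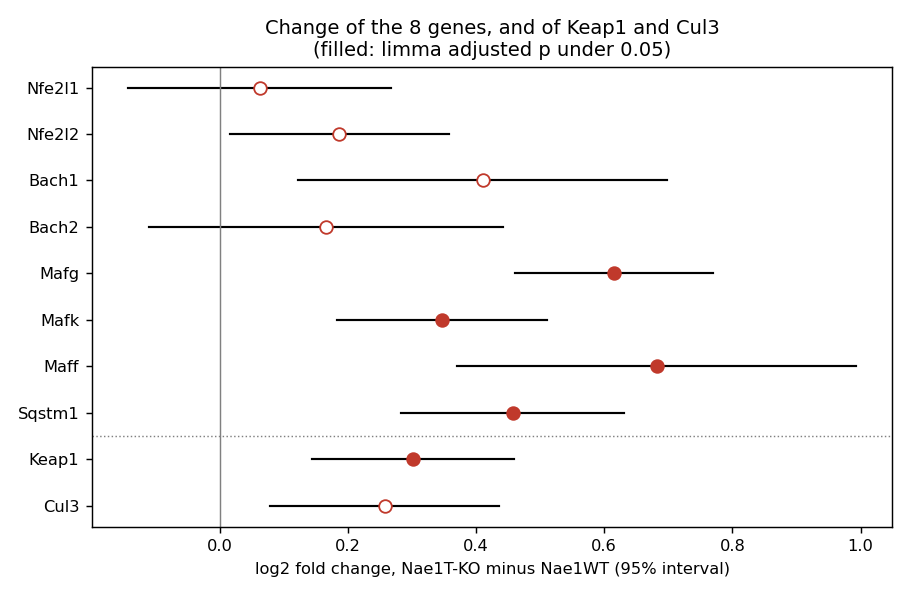
Log2 fold change between Nae1T-KO and Nae1WT (x axis) with the 95% interval from limma for the 8 genes and, under the dotted line, Keap1 and Cul3. Filled points have an adjusted p under 0.05: the intervals of Nfe2l1 and Bach2 cross 0, and those of Nfe2l2, Bach1 and Cul3 do not although their adjusted p missed the threshold.

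Nfe2l2, the gene of NRF2 itself, did not pass the test. The Nae1T-KO libraries had 711, 734 and 726 normalized counts and the Nae1WT libraries 664, 633 and 611. All 3 Nae1T-KO libraries were above the Nae1WT libraries, by a gap of 7.40% of the Nae1WT mean between the nearest libraries. The 1.14-fold difference (95% interval 1.01 to 1.28) had an unadjusted p of 0.0352 and an adjusted p of 0.139 (limma), and no alternative called it. Nfe2l2 lies on chromosome 2 from 75675513 to 75704663.

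Nfe2l1 overlapped between the groups. It had 2708, 2720 and 2183 normalized counts in Nae1T-KO and 2545, 2280 and 2433 in Nae1WT. The lowest of all 6 libraries, Nae1T-KO replicate 3, belonged to the same group as the 2 highest. The log2 fold change was 0.06 (95% interval from -0.14 up to 0.27; limma, adjusted p = 0.702), and leaving out 1 library gave 0.0085 (without Nae1T-KO replicate 2) to 0.17 (without Nae1T-KO replicate 3, adjusted p = 0.145). With sex as a covariate it was 0.0078. Over the alternatives adjusted p was 0.145 to 0.971. Nfe2l1 lies on chromosome 11 from 96817414 to 96829968.

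Among the repressors, Bach1, whose protein leaves DNA when it binds heme, was near the threshold. It had 612, 827 and 710 normalized counts in Nae1T-KO and 608, 463 and 543 in Nae1WT. The groups did not overlap, but the nearest libraries, replicate 1 of each group, were only 0.742% of the Nae1WT mean apart. The log2 fold change was 0.41 ± 0.13 (SE, limma, adjusted p = 0.0643). It passed without Nae1T-KO replicate 1 (0.52, adjusted p = 0.0393), without Nae1WT replicate 1 (0.50, adjusted p = 0.0473) and in DESeq2 on recovered reads (0.42, adjusted p = 0.0236), with adjusted p between 0.0236 and 0.201 over the alternatives. Bach1 lies on chromosome 16 from 87698954 to 87733346.

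Bach2 overlapped, with 1841, 2261 and 1977 normalized counts in Nae1T-KO and 2163, 1753 and 1536 in Nae1WT. The log2 fold change was 0.17 (95% interval from -0.11 up to 0.44; limma, adjusted p = 0.412), and without Nae1WT replicate 3 it was 0.05 and without Nae1WT replicate 1 it was 0.30 (adjusted p = 0.829 and 0.104, and 0.104 to 0.829 over the alternatives). Its antisense gene Bach2os, which overlaps it by 12029 bases, had 10.1 to 22.9 normalized counts in Nae1T-KO and 19.9 to 32.0 in Nae1WT. Bach2 lies on chromosome 4 from 32238413 to 32586109.

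Between libraries of the same sex, each of the 4 pairs gave a positive log2 difference for Mafg (0.52 to 0.71), Maff (0.34 to 0.94), Mafk (0.22 to 0.50), Sqstm1 (0.36 to 0.62), Bach1 (0.17 to 0.62) and Nfe2l2 (0.13 to 0.27). Bach2 was positive in 3 of the 4 pairs (-0.13 to 0.56) and Nfe2l1 in 2 (-0.22 to 0.16). The pairs are not independent, since both female pairs share the 1 female Nae1WT library and both male pairs share the 1 male Nae1T-KO library, so these signs are a description. With sex as a covariate the 4 calls held, with log2 fold changes of 0.59 for Mafg, 0.65 for Maff, 0.34 for Mafk and 0.48 for Sqstm1. The calls for Mafg held in all 20 alternatives, those for Maff and Sqstm1 in 19 and that for Mafk in 17.

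**Figure D3:**
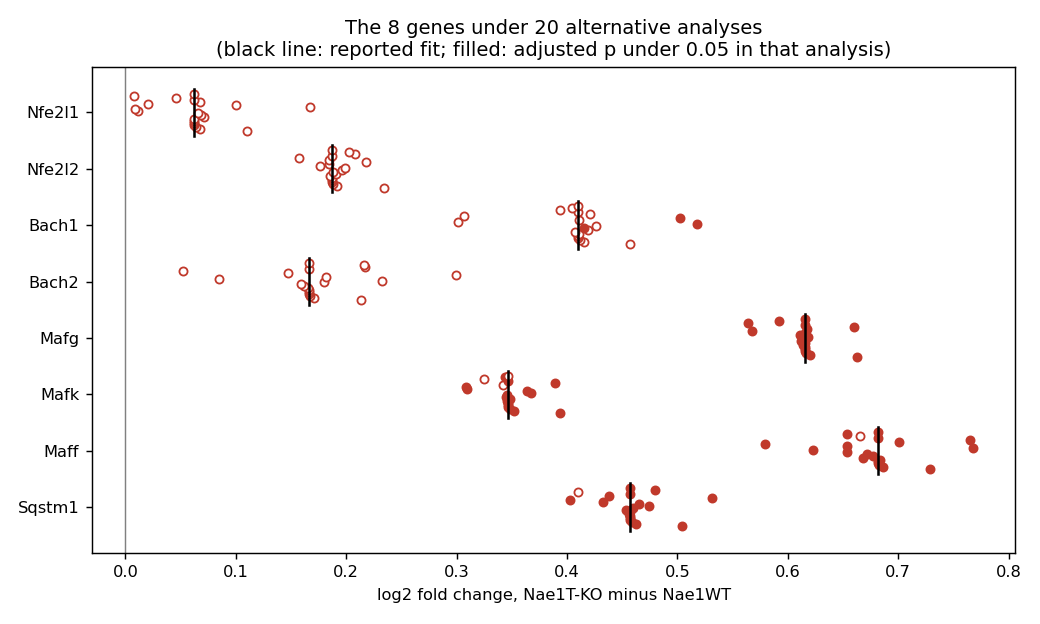
Log2 fold change (x axis) of the 8 genes in 20 alternative analyses, 1 point each, filled where the adjusted p was under 0.05, with the reported value as a black line. Every value is above 0, and Mafg ranges from 0.56 to 0.66.

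Levels were compared between genes only per length, as normalized counts per kb of the merged GENCODE M21 exons, which are longer than any 1 transcript. In Nae1WT the order was Sqstm1 at 528 ± 49.4, Nfe2l1 at 445 ± 24.5, Mafk at 290 ± 16.4, Mafg at 246 ± 15.6, Bach2 at 183 ± 32.1, Nfe2l2 at 168 ± 7.09, Bach1 at 87.1 ± 11.7 and Maff at 60.4 ± 7.79 (SD, n = 3). Of these neighbours Bach2 and Nfe2l2 overlapped in their 3 libraries and the others did not. In Nae1T-KO Mafg, at 376 ± 1.91, came level with Mafk at 369 ± 16.7, with overlapping libraries, and Sqstm1 stood at 723 ± 22.3 (SD, n = 3). Nfe2l2 and Bach2 overlapped there too, at 191 ± 3.04 and 204 ± 21.6, while Bach1 at 116 ± 17.4 and Maff at 96.9 ± 10.05 now shared their ranges (SD, n = 3). By this scale the small MAF pool in both groups was mostly Mafk and Mafg, with Maff the least.

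**Figure D4:**
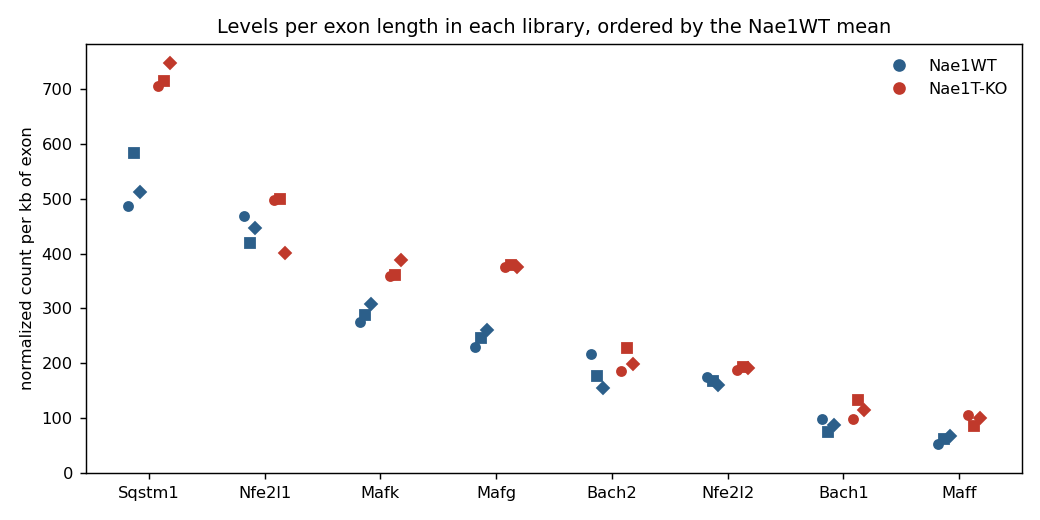
Normalized counts per kb of merged exon (y axis, from 0) in each Nae1WT library (blue) and Nae1T-KO library (red), 1 marker shape per replicate number, with genes ordered by the Nae1WT mean. Mafg lies below Mafk in Nae1WT and level with it in Nae1T-KO.

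Of the listed genes of NRF2 turnover, Keap1 alone was called. The list holds genes of the KEAP1-CUL3 and beta-TrCP ligases, their kinases and other genes of NRF2 turnover. Of its 12 measured genes, 1 rose, 0 fell and 11 did not pass, with a median log2 fold change of 0.06. Over all tested genes 6.53% were called higher and 12.7% in either direction, so the count is near that of all genes. Keap1 encodes the NRF2 adaptor. It had 1684, 1682 and 1682 normalized counts in Nae1T-KO against Nae1WT values of 1376, 1273 and 1450 (log2 fold change 0.30 ± 0.07, SE, limma, adjusted p = 0.0210). That call held in 14 of 20 alternatives and ended without Nae1T-KO replicate 1 (0.30, adjusted p = 0.0551), Nae1T-KO replicate 2 (0.30, 0.0556) or Nae1WT replicate 2 (0.25, 0.0986). Over the alternatives its adjusted p was 0.0114 to 0.204. Cul3, the cullin scaffold KEAP1 uses, had 3357, 3189 and 3906 normalized counts against 2851, 2958 and 2901, without overlap, and missed the threshold (0.26, limma, adjusted p = 0.0615). It passed without Nae1T-KO replicate 2 (0.32, adjusted p = 0.0461), with total-count scaling (adjusted p = 0.0254), in DESeq2 (adjusted p = 0.0377) and in the fit that included sex (adjusted p = 0.0369), and its adjusted p ran from 0.0254 to 0.212 over the alternatives.

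Over all tested genes 6.53% were called higher, 6.18% lower and 12.7% in either direction. Of 12 KEAP1 partners and p62 modifiers, 2 were higher and 0 lower, with a median log2 fold change of 0.05. They were Cdkn1a at 0.85 (limma, adjusted p = 0.000425), whose product p21 can shield NRF2 from KEAP1, and Ulk1 at 0.55 (adjusted p = 0.0112), an autophagy kinase that phosphorylates p62. Of 12 other selective autophagy receptors, 0 were higher and 1 was lower, a count near that of all genes, with a median of 0.03. The lower one was Ncoa4, the receptor for ferritin, at -0.34 (limma, adjusted p = 0.0325), a call that held in 11 of 20 alternatives and ended on leaving out any library but Nae1T-KO replicate 1 (adjusted p 0.0624 to 0.101, and 0.0162 to 0.228 over the alternatives). Nbr1, the relative of p62, had 917 ± 34.0 and 873 ± 49.5 normalized counts (SD, n = 3; limma, adjusted p = 0.581).

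Of 9 measured genes that process NFE2L1, 2 were higher, 1 was lower and 6 did not pass the test, with a median log2 fold change of 0.04. Over all tested genes 12.7% were called in either direction, and nothing is read from so short a list. Ngly1, the deglycosylating enzyme that NFE2L1 needs to become active, fell from 912, 879 and 880 normalized counts in Nae1WT to 629, 653 and 648 in Nae1T-KO (log2 fold change -0.47 ± 0.07, SE, limma, adjusted p = 0.00330). All 3 Nae1T-KO libraries lay well below the Nae1WT libraries. Fbxw7, a substrate receptor of the ligase that degrades NFE2L1, was higher by 0.49 (adjusted p = 0.00752). Vcp, the ATPase that extracts NFE2L1 from the membrane, was higher by 0.25 (adjusted p = 0.0421), a call lost on leaving out any 1 library (0.0615 to 0.183, and 0.0158 to 0.292 over the alternatives). Ddi2, the protease that cleaves NFE2L1, had 517 ± 123 and 516 ± 37.4 normalized counts (SD, n = 3; limma, adjusted p = 0.940), and its direction changed between alternatives.

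Known targets of these factors were also counted, and the difference between the target lists was not tested. Of 25 tested NRF2 targets, 18 were higher and 0 lower, where 6.53% of all tested genes were called higher and 6.18% lower. The 25 had a median log2 fold change of 0.79, and 2 further targets, Me1 and Gsta4, were too low to test. The list was written with earlier results of these libraries known, so its count is no independent evidence of its direction. Srxn1 at 4.61, Slc7a11 at 3.85 and Txnrd1 at 1.34 changed most among the called targets with a mean of at least 100 normalized counts. Some targets with lower counts changed more than Txnrd1. The largest change of the 8 regulators was 0.68. Of 7 measured genes on a list of heme and iron genes repressed by BACH1, 5 were higher and 0 lower (median 0.80). They were Fth1 at 0.67 and Ftl1 at 0.93, which encode ferritin chains, the heme transporter gene Slc48a1 at 0.80, and Gclm at 0.84 and Nqo1 at 3.03, which act in glutathione synthesis and quinone reduction and not on heme or iron, and 6 of the 7 are also on the list of NRF2 targets. Hmox1, the classic BACH1-repressed gene, overlapped, with 126, 71.4 and 106 normalized counts in Nae1T-KO and 63.8, 92.0 and 83.7 in Nae1WT (limma, adjusted p = 0.407). Fech, not on the list of NRF2 targets, had 324, 333 and 301 normalized counts in Nae1T-KO and 420, 358 and 383 in Nae1WT. Fech was thus lower without overlap but did not pass the test (log2 fold change -0.27, limma, adjusted p = 0.106).

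Of 32 proteasome genes, the known targets of NFE2L1, 3 were higher and 0 lower, with a median log2 fold change of 0.04, a count near the 6.53% of all tested genes called higher. They were Psmd4 at 0.27, Psmd3 at 0.25 and Psmd7 at 0.22 (limma, adjusted p = 0.0309, 0.0465 and 0.0464). Their number was 0 without Nae1T-KO replicate 1 or without any 1 of the Nae1WT libraries, and 1 without Nae1T-KO replicate 2. Of 12 tested T cell genes linked to BACH2, 2 were higher and 1 was lower, with a median of 0.16, where 12.7% of all tested genes were called in either direction. Il7r, the interleukin 7 receptor gene, was lower by a log2 change of -0.36 (limma, adjusted p = 0.0476). That call ended in several alternatives, with adjusted p from 0.0267 to 0.275. Without Nae1T-KO replicate 1 or Nae1T-KO replicate 2, 1 of the 12 was called.

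Among the higher ones was Prdm1, which encodes BLIMP-1 and is a known target of BACH2 repression. It is below the level set for naming and is named after its values were seen. Prdm1 had 68.2, 54.6 and 59.6 normalized counts in Nae1T-KO and 6.14, 9.41 and 22.1 in Nae1WT, without overlap, from 5 to 62 reads per library (log2 fold change 2.36 ± 0.40, SE, limma, adjusted p = 0.00490). Plasma cells also express Prdm1. The B cell marker sums were 223 to 639 in Nae1T-KO and 248 to 378 in Nae1WT. Those of myeloid and dendritic markers were 76.1 to 137 and 19.9 to 34.4, without overlap and higher in Nae1T-KO, as Prdm1 was. Plasma cell markers were not summed, and the part of any other cells in the Prdm1 values was not tested. Other CNC and MAF family genes were near the limit of detection: of 5 measured, 2 were tested, and the higher of them, Maf, had 25.7 ± 5.37 and 18.3 ± 13.3 normalized counts (SD, n = 3; limma, adjusted p = 0.362).

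**Figure D5:**
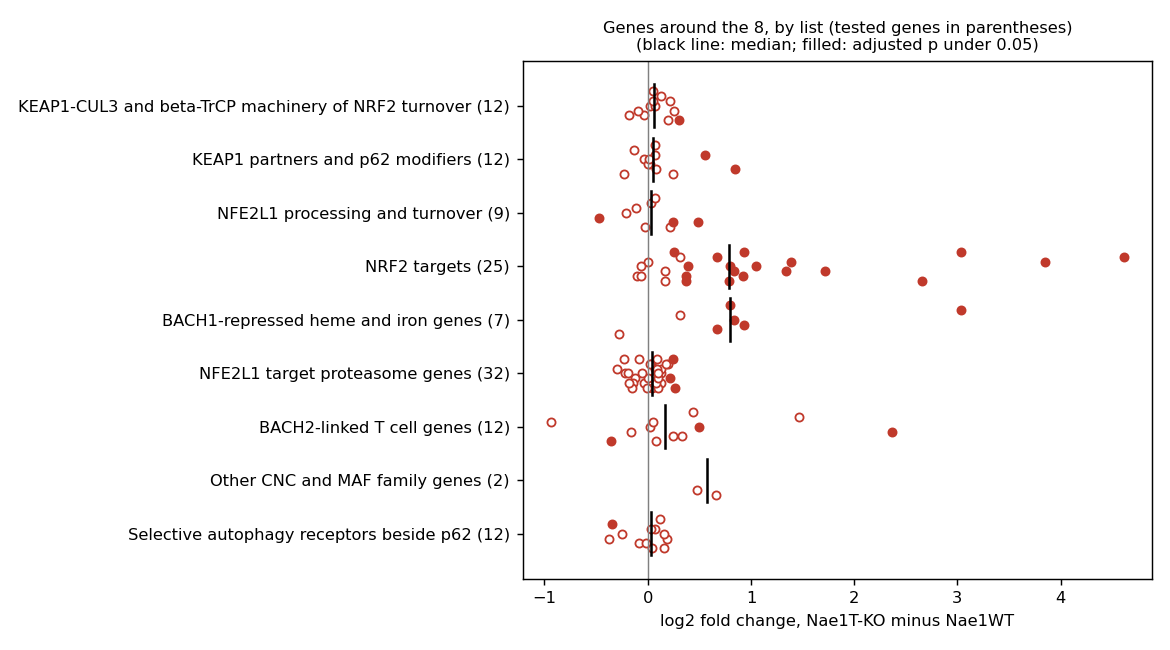
Log2 fold change between Nae1T-KO and Nae1WT (x axis) of each tested gene in the 9 lists around the 8 genes, filled where the limma adjusted p was under 0.05, with the median as a black line. The NRF2 target and BACH1-repressed lists have medians of 0.79 and 0.80, the proteasome list has 0.04.

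For the 4 called genes, the tested genes with a mean of at least 100 normalized counts (9648) were ranked by Pearson r of their log2 values over the 6 libraries. Mafg was most like Chpf2, Nop53 and Rab6a (r of 0.998, 0.996 and 0.996), and Maff most like Uxs1, Calcrl and Kpnb1 (0.995, 0.994 and 0.993). Mafk was most like Utf1, Lypla2 and Ddx27 (0.998, 0.995 and 0.994), and Sqstm1 most like Sap30l, Wrap73 and Fbxw7 (0.998, 0.997 and 0.995). Over 6 libraries in 2 groups such values are a description, and how many genes come near them was not counted. Among the 4 called genes themselves r was 0.91 to 0.97, all 6 libraries sharing the same group difference.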

How the data were processed

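Per the submitters' processing notes, bcl2fastq, HISAT2, DESeq2 1.42.0 and the build mm10 were used; which counter, annotation and strand setting made the table is not given in the sources used here. The deposited signal is a single table of the authors' normalized counts for 18288 gene symbols, all matched to RefSeq GRCm38.p6. Within each library the values were whole multiples of 1 step (tolerance 0.001 of a read), which gave back 15628252 to 25444653 reads. The step of Nae1T-KO replicate 3 was near 1, at 1.01. Multiplied by the median-ratio size factor of the recovered reads it gave 1.00, as in the other libraries.

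Genes with at least 10 normalized counts in at least 3 libraries entered limma 3.58.1 (R 4.3.3) as log2(normalized count + 1) (trend, robust, group alone, two-sided, Benjamini-Hochberg over 13819 genes). Fold changes are on this scale. The fit was tested on simulated data, where it missed some changed genes and made some false calls. The members, the lists and the tests were chosen with earlier results of these data known. Named genes are the 8, Nae1, Keap1, Cul3 and up to 3 called genes per list with the largest change and a mean of at least 100 (with none called, the highest gene). Ddi2, Fech, Fth1, Hmox1, Il4, Il13, Nbr1, Nqo1, Prdm1 and the overlapping Mrnip, Sirt7 and Bach2os fall outside this rule and were chosen after their values were seen. Alternatives were other scalings, filters and pseudocounts, tests of the recovered reads with DESeq2 1.42.0, limma-voom and edgeR 4.0.16, leaving out each library, replicate blocks, sex as a covariate and limma without trend or robust estimation. The test of genotype by sex was added after seeing the data. Protein features planned at the start were not analysed here. The values of 1 gene that the naming rule selects are not reported here.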

Additional observations from a re-analysis of the deposited data

Results flagged for a closer look

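For Nfe2l1 the libraries of the 2 sexes moved in opposite directions. Against the female Nae1WT library, the 2 female Nae1T-KO libraries differed by log2 values of 0.154 and 0.161. Against the 2 male Nae1WT libraries, the male Nae1T-KO library differed by -0.221 and -0.0626. The difference between the sexes, tested as an interaction in limma after it was seen, was 0.30 ± 0.15 (SE, limma, adjusted p = 0.964 over 13819 genes), so it did not pass. It rests on 1 library in 2 of the 4 combinations of genotype and sex.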

How the results depend on the processing

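With 3 libraries a group, a gene that missed the threshold is not shown to be unchanged. The 8 genes kept their direction in each of the 20 alternatives. Leaving out 1 library gave 3 to 5 higher and 0 lower among the 8, 844 to 1790 calls over all genes (1034 without Nae1T-KO replicate 2, 844 without Nae1WT replicate 2, 954 without Nae1WT replicate 3), 0 to 2 calls in the KEAP1-CUL3 list, 0 to 4 in the proteasome list, 1 to 3 in the BACH2 list and 0 to 1 in the autophagy receptor list. Without trend or robust estimation limma called 791 genes, and 0 in the KEAP1-CUL3, proteasome and autophagy receptor lists and 1 each in the KEAP1 partner and BACH2 lists. The KEAP1-CUL3 list had 2 calls with total-count scaling, in DESeq2 or with sex as a covariate. The proteasome list had 1 call with no filter or with sex as a covariate, and the BACH2 list had 5 in edgeR and 6 in DESeq2. The cause of these shifts was not tested. Ddi2, which did not pass the test (log2 fold change -0.02), changed sign with total-count scaling (0.0223), in edgeR (0.00617), in DESeq2 (0.00319) and without Nae1T-KO replicate 3 (0.191), Nae1WT replicate 1 (0.00658) or Nae1WT replicate 3 (0.00517); leaving out 1 library gave -0.139 to 0.191.

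Replicates of the same title number did not deviate together (r over genes of -0.13, -0.18 and -0.27), and no Nae1T-KO library correlated best with its own number. Every pair of the same title number joined a female and a male library, as did the pairs by library number. Pairing and sex cannot be told apart here, so a pairing of the replicates is not excluded. The replicate block by title number gave 968 calls over all genes and 0 in the KEAP1-CUL3, proteasome and autophagy receptor lists, and it kept the 4 calls among the 8. The replicate block by library number, possible on 4 libraries, gave 253 calls over all genes, 1 among the 8 (Mafg), 1 each in the KEAP1 partner and BACH2 lists, and 0 in the KEAP1-CUL3, NFE2L1 processing, proteasome and autophagy receptor lists.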
